A study of Mus musculus with 11 samples.

Results

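The guanylate-binding proteins (GBPs) and the immunity-related GTPases (IRGs) form a pair of GTPase families whose genes are switched on by interferons. The genes described here were Gbp2, Gbp3, Gbp4, Gbp5, Gbp6, Gbp7, Gbp9, Irgm1, Iigp1 and Igtp, which made up 10 of the 45777 genes in the expression table. They were chosen by symbol, with earlier results of these data known. All 10 had reads in every library and entered every test. In brief, none of the 10 passed the test for imiquimod (IMQ) against vehicle in skin or in small intestine, in both tissues 1 vehicle library carried high levels of the family, and in vehicle-treated mice Igtp and Irgm1 were higher in small intestine than in skin in every fit that left out 1 library. Gbp3 was called higher as well but lost the call in 4 of those 11 fits, and 3 of 10 was close to the 28.2% of all genes called higher in small intestine.

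GBPs and IRGs act inside cells, where they gather on the membranes of vacuoles that hold bacteria or parasites and, for several GBPs, on the surface of bacteria in the cytosol. Irgm1 and Igtp (also called Irgm3) belong to the regulatory IRGs, which sit on the cell's own membranes and keep effector IRGs such as Iigp1 in check, while Iigp1 helps to break open parasite vacuoles. GBP2 is anchored to membranes by prenylation, GBP5 has been tied to assembly of the NLRP3 inflammasome, and GBPs that coat bacteria promote sensing of lipopolysaccharide by the caspase encoded by Casp4. Interferon-γ induces both families, in part through the γ-activated sequence (GAS), and type I interferon and IRF1 act through the interferon-stimulated response element (ISRE).

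The mice were BALB/c, female or male, with the sex of each mouse not given. At 8 to 10 weeks of age they received 62.5 mg a day of cream with 5% IMQ, a ligand of Toll-like receptor 7 that produces psoriasis-like skin inflammation, or vehicle (Vaseline) on shaved skin. GEO's labels give the back and right ear and 5 to 8 days. No mouse carried an engineered allele. RNA from whole skin and small intestine gave 11 libraries, numbered as in the labels: skin control replicates 1 to 3, skin IMQ replicates 4 to 6, small intestine control replicates 7 to 9 and small intestine IMQ replicates 10 and 11. The labels do not say which skin and intestine came from the same mouse or that each library was a separate mouse, so the p-values below measure only the spread among these libraries. Because the vehicle was Vaseline and not the base of the IMQ cream, an effect of IMQ and one of that base cannot be told apart.

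Promoters are shown first because all members share interferon as an inducer. RefSeq promoter windows (GRCm38.p6, 250 bases before to 50 bases after the transcription start) were matched for 6 of the 10 members. A search of both strands for the ISRE core GAAANNGAAA, which reads TTTCNNTTTC on the other strand, found it in all 6 members, against 3.45% of 32544 promoters of the same length. The GAS letters TTCNNNGAA were found in Gbp5, Gbp7 and Igtp, against 8.33% of promoters. The windows are written 5′ to 3′ on the gene's strand, with matches to either motif in capitals:
Gbp2, chr3:142620413-142620712, plus strand: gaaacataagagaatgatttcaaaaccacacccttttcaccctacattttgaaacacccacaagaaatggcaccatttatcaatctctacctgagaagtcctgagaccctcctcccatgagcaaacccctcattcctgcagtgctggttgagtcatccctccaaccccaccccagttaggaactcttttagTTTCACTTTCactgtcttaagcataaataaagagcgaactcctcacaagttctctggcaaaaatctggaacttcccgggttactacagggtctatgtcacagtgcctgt
Gbp3, chr3:142559794-142560093, plus strand: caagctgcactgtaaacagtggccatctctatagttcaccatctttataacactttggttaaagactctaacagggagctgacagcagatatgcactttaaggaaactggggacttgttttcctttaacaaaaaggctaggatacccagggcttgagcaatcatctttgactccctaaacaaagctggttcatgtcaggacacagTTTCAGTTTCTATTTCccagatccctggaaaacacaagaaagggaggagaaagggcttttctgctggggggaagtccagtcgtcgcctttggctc
Gbp5, chr3:142496684-142496983, plus strand: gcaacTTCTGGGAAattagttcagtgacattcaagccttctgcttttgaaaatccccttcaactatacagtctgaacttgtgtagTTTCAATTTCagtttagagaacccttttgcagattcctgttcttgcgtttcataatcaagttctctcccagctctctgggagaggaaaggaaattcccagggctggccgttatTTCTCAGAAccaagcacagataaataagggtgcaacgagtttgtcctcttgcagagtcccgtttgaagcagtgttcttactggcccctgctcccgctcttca
Gbp7, chr3:142530086-142530385, plus strand: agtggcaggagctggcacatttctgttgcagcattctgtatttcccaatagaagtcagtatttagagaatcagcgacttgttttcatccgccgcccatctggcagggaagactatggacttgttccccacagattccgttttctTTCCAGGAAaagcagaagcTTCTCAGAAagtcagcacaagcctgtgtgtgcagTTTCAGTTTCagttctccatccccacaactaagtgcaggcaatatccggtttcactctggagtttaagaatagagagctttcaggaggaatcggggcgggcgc
Irgm1, chr11:48871371-48871670, minus strand: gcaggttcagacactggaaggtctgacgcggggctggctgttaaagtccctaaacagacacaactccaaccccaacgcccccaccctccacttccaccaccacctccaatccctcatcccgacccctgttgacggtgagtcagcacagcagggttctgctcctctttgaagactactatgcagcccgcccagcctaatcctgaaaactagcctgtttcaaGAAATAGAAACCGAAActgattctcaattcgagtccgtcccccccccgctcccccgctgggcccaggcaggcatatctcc
Igtp, chr11:58199306-58199605, plus strand: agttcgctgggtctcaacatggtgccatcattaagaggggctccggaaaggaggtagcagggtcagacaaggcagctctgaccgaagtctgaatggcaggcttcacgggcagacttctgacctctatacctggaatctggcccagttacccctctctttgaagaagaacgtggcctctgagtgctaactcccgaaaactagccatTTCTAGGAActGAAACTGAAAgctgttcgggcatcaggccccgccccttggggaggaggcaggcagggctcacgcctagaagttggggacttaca

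These matches lay close to the start of transcription in most of the windows. Counted from the start, the ISRE core of Gbp2 began at position -59 and that of Gbp7 at -53. Gbp3 and Irgm1 each held 2 overlapping copies, beginning at -45 and -39 in Gbp3 and at -30 and -24 in Irgm1. In Igtp, a GAS at -45 stood just before an ISRE core at -34. Gbp5 was the exception, with its ISRE core at -165 and GAS matches at -245 and -52, and Gbp7 had GAS matches at -106 and -87. The capitals run together where copies overlap. Gbp3 had a second RefSeq start site, whose window held neither motif. A match describes letters only and was not tested for binding in these tissues. No promoter was matched for Gbp4, Gbp6, Gbp9 and Iigp1.

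The libraries held 44995414 to 58526384 counts each. The summed keratinocyte markers lay between 531249 and 1614752 normalized counts in skin libraries and between 67 and 184 in intestinal ones. Markers of small intestine epithelium summed to between 773203 and 1644114 in the intestinal libraries, so the tissue labels matched. Skin control replicate 2 stood apart in 2 other ways. Its summed hair follicle markers were 324, near the 358 to 614 of the IMQ libraries and unlike the 73516 and 113966 of controls 1 and 3. Over 128 genes typical of the intestine, it also held transcripts at 0.922% (median) of what the intestinal controls had. A share of that size would make up 0.408% to 3.39% of the members' levels in that library. As these are whole tissues, more cells of a type and more RNA per cell cannot be told apart.

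Of the genes, 4 lie together on mouse chromosome 3 (GRCm38), in the order Gbp5, Gbp7, Gbp3 and Gbp2 between 142496934 and 142638008. Gbp9, Gbp4 and Gbp6 lie on chromosome 5 between 105076464 and 105295871. Irgm1 (48865245 to 48871420) and Igtp (58199556 to 58207592) are both on chromosome 11, and Iigp1 is on chromosome 18 (60373616 to 60392634). Because paralogs can share reads, the transcripts were compared in windows of 100 bases, the read length. Of the windows of Gbp6, 32.4% were also found in another gene, nearly all of them in Gbp10, so that counts of Gbp6 and Gbp10 are uncertain as separate genes. The share was 5.67% for Igtp, with Irgm2, and 2.88% for Gbp4, mainly with Gbp11. It was at most 1.74% for the other members, and 0 for Gbp2, Irgm1 and Iigp1.

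The first question was whether the GTPase genes respond to IMQ in the treated skin. None of the 10 was called by edgeR's quasi-likelihood test at a Benjamini-Hochberg adjusted p under 0.05, against 6.74% of all genes tested, with 4.05% higher and 2.69% lower. No member reached an unadjusted p under 0.05, against 4753 of all 20512 genes. None was called by DESeq2, which called 14.8% of all genes. Estimates lay on both sides of 0, with 4 above and 6 below. Their median was -0.05 on the log2 scale, and that of all genes was -0.01. The 95% intervals of the log2 fold changes ran from -1.50 for the lowest bound to 1.20 for the highest. These libraries thus leave room for levels from 0.353 to 2.30 times those of the controls. The groups overlapped for every member, while 15.1% of all genes had every IMQ library above every control library. The share of all genes with every IMQ library below every control was not counted.

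Gbp2 showed the lowest estimate in skin. Its normalized counts, scaled within the tissue, were 1270, 2969 and 995 in controls 1, 2 and 3 and 963, 1300 and 1312 in IMQ libraries 4, 5 and 6. Control 2 was far above the other 5 libraries, which overlapped. The log2 fold change was -0.55 ± 0.40 (SE, adjusted p = 0.467). Igtp stood at the other end, with 682, 1849 and 714 in the controls and 1214, 1297 and 1444 after IMQ. All IMQ libraries were above controls 1 and 3, and control 2 was above all of them. Its log2 fold change was 0.29 ± 0.39 (SE, adjusted p = 0.714).

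The other genes of the chromosome 3 cluster also had their highest value in control 2. Gbp3 had 582, 1182 and 554 normalized counts in the controls and 660, 741 and 825 after IMQ. Gbp5 had 302, 667 and 228 in the controls and 262, 409 and 337 after IMQ. Gbp7 had 1308, 2479 and 963 in the controls and 1508, 1806 and 1752 after IMQ. For Gbp3 and Gbp7 the IMQ libraries lay between control 2 and the other controls, while for Gbp5 they overlapped with the other controls. Their log2 fold changes were -0.06, -0.25 and 0.09.

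On chromosome 5, Gbp4 had 1433, 3005 and 1318 normalized counts in the skin controls and 1722, 1694 and 2200 after IMQ. Gbp6 had 647, 1727 and 634 in the controls and 583, 680 and 856 after IMQ. Gbp9 had 1139, 1957 and 969 in the controls and 1319, 1818 and 1810 after IMQ. Control 2 was again the highest of the 6 libraries for each of these genes. Their log2 fold changes were -0.04, -0.51 and 0.28.

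Of the IRG genes, Irgm1, whose product restrains effector IRGs, had 902, 1769 and 1005 normalized counts in the skin controls and 1093, 1379 and 1324 after IMQ. Iigp1, the effector, had 1169, 3028 and 1091 in the controls and 1275, 1222 and 1583 after IMQ. In both genes all IMQ libraries lay above controls 1 and 3 and below control 2. The log2 fold changes were 0.05 for Irgm1 and -0.37 for Iigp1.

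**Figure D1:**
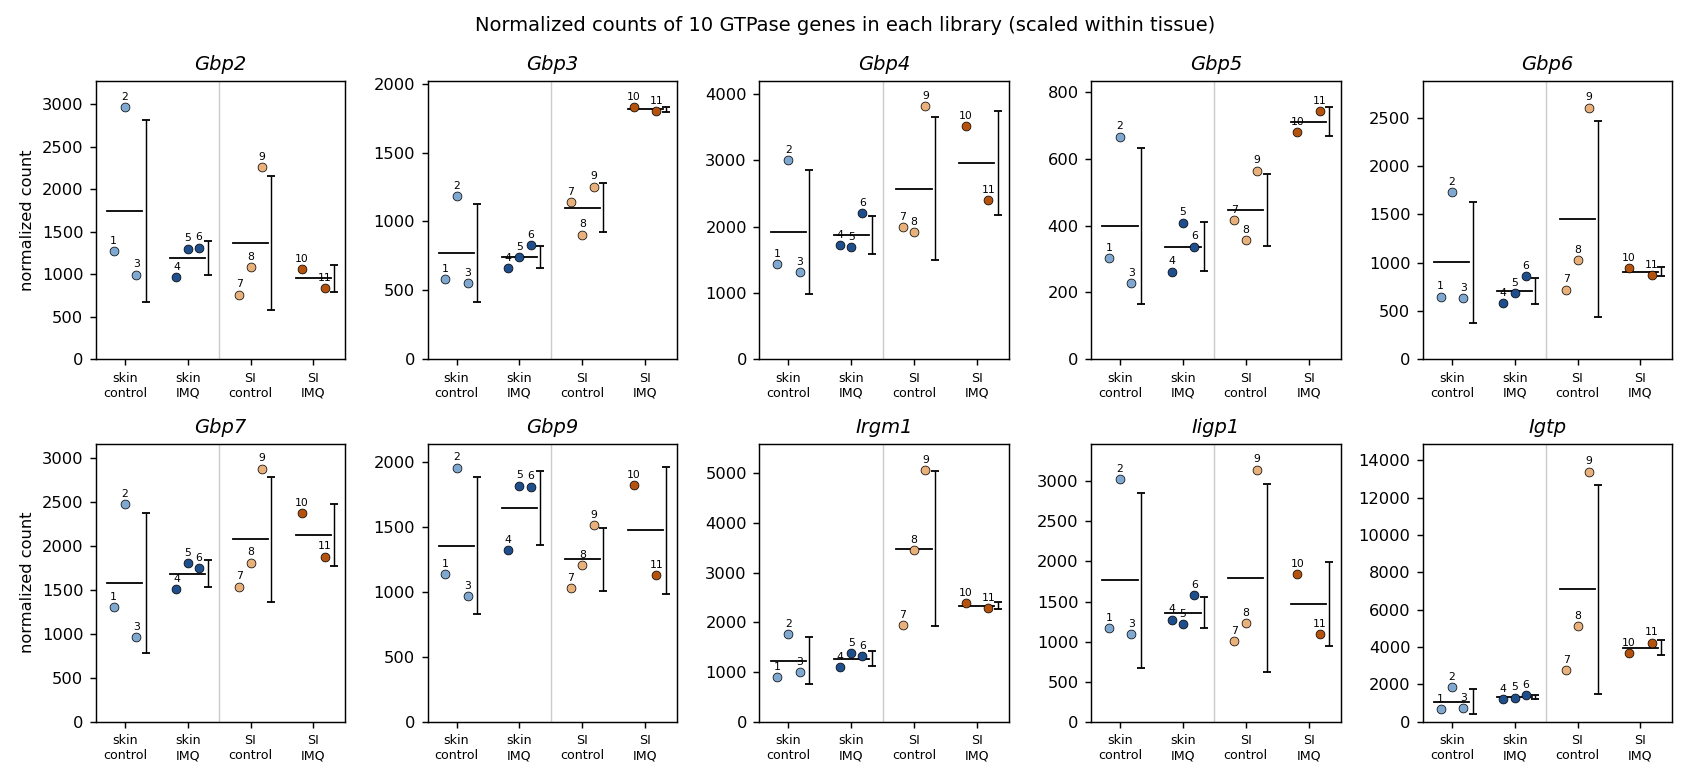
Normalized count (y axis, from 0) of each of the 10 GTPase genes in every library, scaled within its tissue, for skin control, skin IMQ, small intestine (SI) control and small intestine IMQ; points are libraries with their replicate numbers, horizontal bars are group means and error bars are SD. Control 2 is the highest skin library for all 10 genes, and control 9 is the highest small intestine control for all 10.

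Skin control replicate 2 was thus the highest library for 10 of 10 members. Its normalized counts were 1.86 to 2.70 times the mean of the other 2 controls, with a median of 2.35, while the median over all genes was 1.01 and 7.7% of all genes had a ratio at least as high as the lowest of the members. T cell markers in that library summed to 1925 normalized counts, against 979 and 1084 in controls 1 and 3. The summed NK and ILC1 markers were 806, against 457 and 478. In the IMQ libraries, which had lower member levels than control 2, the T cell markers summed to 1679 to 4210 and the NK and ILC1 markers to 480 to 1081. Dendritic cell markers summed to 4657 in control 2, against 3231 and 2035 in controls 1 and 3 and 1798 to 2651 after IMQ. The part of these cells in the members' levels was not tested.

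Without control 2, a choice made after seeing the data, the log2 fold change was above 0 for 10 of 10 members. The median was 0.40, against 0.01 over all genes, and the values ran from 0.07 for Gbp2 to 0.92 for Igtp. Igtp was then called (edgeR, adjusted p = 0.0112), with a log2 fold change of 0.92, a 95% interval of 0.61 to 1.22 and a 1.89-fold higher level. It was the only member called, and 12.1% of all genes were called in that fit. Gbp9, with 0.65 (adjusted p = 0.0742), and Gbp7, with 0.57 (adjusted p = 0.0837), were next. The 6 members with estimates below 0 thus changed direction when control 2 was left out. Other single libraries mattered too. Gbp7 and Irgm1 turned below 0 without control 1 (-0.03 and -0.14) or control 3 (-0.17 and -0.08), Gbp3 and Gbp4 turned above 0 without IMQ replicate 4 (0.02 and 0.03), and without IMQ replicate 5 Gbp4 was at 0.03 and Irgm1 at -0.02. Gbp9 and Igtp stayed above 0 in every such fit.

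The second question was whether the skin treatment moved the same genes in the small intestine, which received no cream. Again none of the 10 members was called by edgeR's quasi-likelihood test, against 2.95% of all genes, with 2.77% higher and 0.17% lower. Estimates were above 0 for 5 members and below 0 for 5. Their median was -0.13 on the log2 scale, and that of all genes was -0.02. Gbp3 and Gbp5 had an unadjusted p under 0.05, as did 2452 of all 19965 genes. Gbp3 and Gbp5 were also the 2 members whose groups did not overlap, both higher after IMQ. That was 2 of 10, read against 15.1% of all genes with both IMQ libraries above every control.

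Gbp3 had 1139, 904 and 1254 normalized counts in controls 7, 8 and 9 and 1830 and 1802 in IMQ libraries 10 and 11. The IMQ libraries lay close together and above every control. The log2 fold change was 0.72 ± 0.16 (SE, adjusted p = 0.0736), with a 95% interval of 0.34 to 1.10, or 1.65-fold. DESeq2's Wald test, the test the study's methods name, called Gbp3 (adjusted p = 0.00657) and no other member, while calling 6.04% of all genes. Over the other settings tried for this gene, DESeq2 included, the adjusted p ran from 0.00657 to 0.367. Gbp5, of the same cluster on chromosome 3 but with Gbp7 lying between them, had 417, 356 and 565 in the controls and 681 and 744 after IMQ. The difference was of similar size, with a log2 fold change of 0.68 ± 0.22 (SE, adjusted p = 0.247).

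The lowest estimate in small intestine was that of Igtp, which had 2758, 5132 and 13405 normalized counts in the controls and 3693 and 4240 after IMQ. The IMQ values lay between controls 7 and 8, and control 9 stood far above the other 4 libraries. The log2 fold change was -0.84 ± 0.58 (SE, adjusted p = 0.672), with a 95% interval of -2.21 to 0.53. Gbp6 had 720, 1025 and 2606 in the controls and 939 and 872 after IMQ, and a log2 fold change of -0.68. Gbp2 had 758, 1082 and 2257 in the controls and 1060 and 839 after IMQ, and a log2 fold change of -0.52. For these genes too, the IMQ libraries fell within the range of controls 7 and 8.

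Irgm1, whose estimate lay between those of Gbp6 and Gbp2, had 1944, 3443 and 5057 normalized counts in the intestinal controls and 2382 and 2281 after IMQ, a log2 fold change of -0.58. Its controls were spread over more than the distance between the groups. Iigp1 had 1009, 1235 and 3147 in the controls and 1843 and 1094 after IMQ, a log2 fold change of -0.29. The 2 IMQ libraries of Iigp1 differed from each other, with library 10 above controls 7 and 8 and library 11 between them.

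Library 10 was also the higher of the IMQ pair for the remaining GBP genes. Gbp4 had 1988, 1919 and 3821 normalized counts in the controls and 3523 and 2404 after IMQ. Gbp7 had 1538, 1813 and 2883 in the controls and 2373 and 1882 after IMQ. Gbp9 had 1028, 1208 and 1512 in the controls and 1820 and 1130 after IMQ. The groups overlapped for all 3 genes, whose log2 fold changes were 0.20, 0.03 and 0.24.

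Small intestine control replicate 9 was the highest control for 10 of 10 members and the highest library for 7. The exceptions were Gbp3, Gbp5 and Gbp9, in which an IMQ library was higher. Relative to the mean of controls 7 and 8, control 9 was 3.40 times as high for Igtp, 2.99 for Gbp6, 2.80 for Iigp1 and 2.45 for Gbp2. It was only 1.23 times as high for Gbp3 and 1.35 for Gbp9. The median over members was 1.92, against 0.985 over all genes, and 15.7% of all genes had a ratio at least as high as the lowest of the members. NK and ILC1 markers in control 9 summed to 9730 normalized counts, against 7009 and 3925 in controls 7 and 8, and T cell markers to 3400, against 3610 and 2236. B cell markers summed to 1994, against 1141 and 752 in controls 7 and 8 and 1321 and 1131 after IMQ. Dendritic cell markers summed to 2343, against 2751 and 2363 in controls 7 and 8 and 14729 and 11798 after IMQ. Their part in the members' levels was not tested.

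Without control 9, again a choice made after seeing the data, 9 of the 10 log2 fold changes were above 0. The median was 0.36, against -0.03 over all genes. Irgm1 stayed below 0 at -0.21, and Gbp5 was the highest at 0.88, followed by Gbp3 at 0.83. No member was called (edgeR, lowest adjusted p = 0.0966 for Gbp3), and 1.87% of all genes were. At an unadjusted p under 0.05 stood Gbp3, Gbp4 and Gbp5. The share of all genes at that level was not counted for the fit without control 9.

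**Figure D2:**
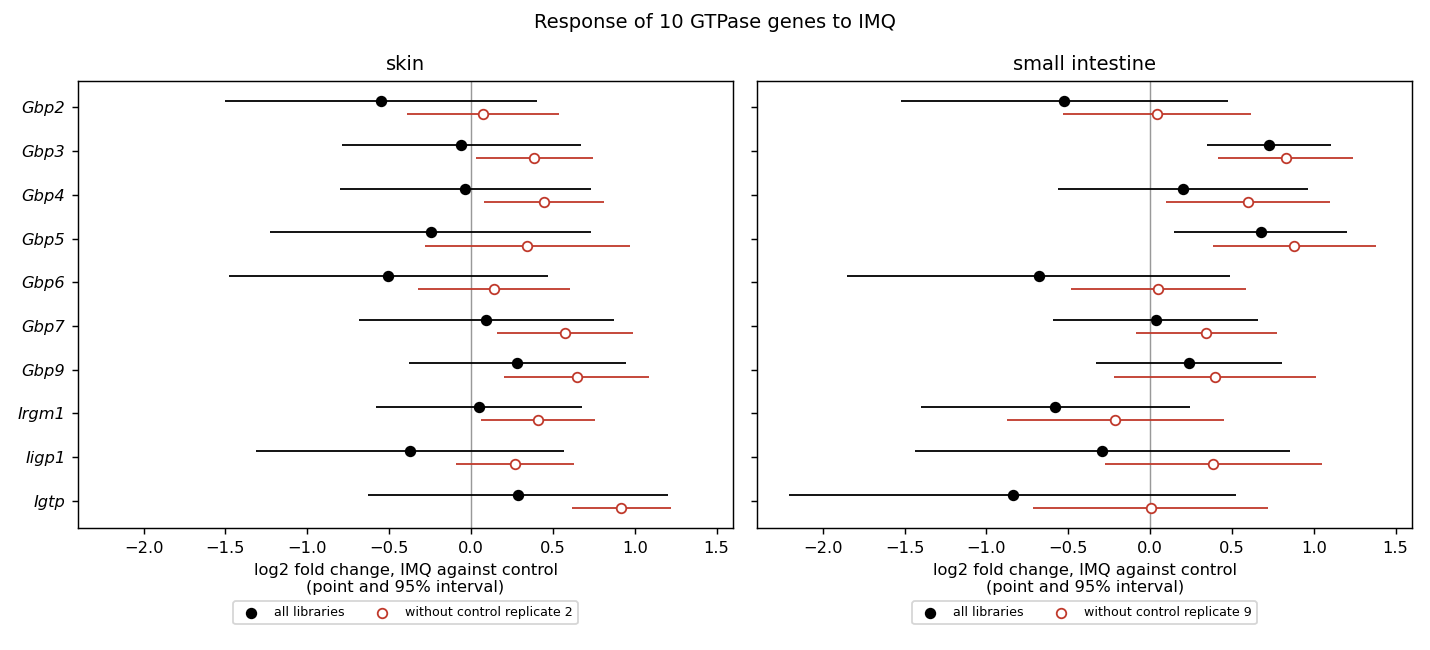
Log2 fold change of IMQ against control (x axis, point and 95% interval) for each of the 10 GTPase genes in skin and small intestine; filled points use all libraries, open points leave out control replicate 2 of skin or control replicate 9 of small intestine. With all libraries only the intervals of Gbp3 and Gbp5 in small intestine lie wholly above 0, and without the named control 10 of 10 points in skin and 9 of 10 in small intestine are above 0.

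**Figure D3:**
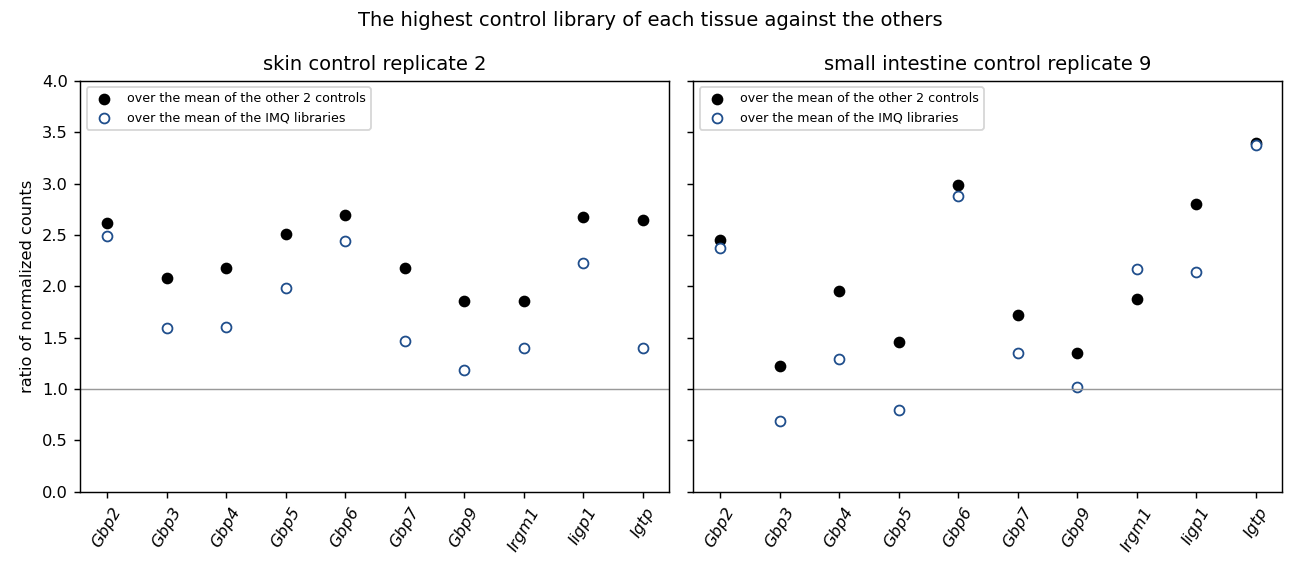
Ratio of normalized counts (y axis, from 0) of skin control replicate 2 and of small intestine control replicate 9 to the mean of the other 2 controls (filled) and to the mean of the IMQ libraries (open) of the same tissue, for each GTPase gene. In skin the filled points lie between 1.86 and 2.70, and in small intestine they run from 1.23 for Gbp3 to 3.40 for Igtp.

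It was also asked whether skin and intestine responded differently, which 1 fit of all 11 libraries tested with an interaction term. None of the 10 members was called by edgeR, against 2.55% of all genes, or by DESeq2, against 7.07%. None had an unadjusted p under 0.05, against 3068 of all 18108 genes. The largest differences, small intestine minus skin, were -1.11 ± 0.79 for Igtp (SE, adjusted p = 0.536), 0.94 ± 0.55 for Gbp5 (adjusted p = 0.433) and 0.80 ± 0.41 for Gbp3 (adjusted p = 0.361) on the log2 scale. Leaving out 1 library moved the Igtp value from -1.77, without skin control 2, to -0.26, without intestinal control 9. Over the same fits Gbp5 ran from 0.32, without skin control 2, to 1.24, and Gbp3 from 0.32, also without skin control 2, to 1.01, both highest without skin control 3. The intervals with all libraries were wide, from -2.85 to 0.64 for Igtp and from -0.10 to 1.70 for Gbp3, so that for both genes differences in response of more than 2-fold lay within the interval.

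Levels were also compared between the tissues of vehicle-treated mice. In the fit of all 11 libraries, 3 members were called higher in control small intestine than in control skin, against 28.2% of all genes, and none lower, against 28.8%. The share called higher was thus close to that of all genes. The only estimate below 0 was that of Gbp2, at -0.03. Igtp led with a log2 difference of 3.04 ± 0.56 (SE, edgeR adjusted p = 7.60e-04). Its FPKM, a level per transcript length, was 6.45, 16.3 and 6.84 in the skin controls and 23.2, 46.6 and 109.9 in the small intestine controls. Irgm1 followed with a log2 difference of 1.83 ± 0.34 (SE, adjusted p = 7.62e-04), and 7.93, 14.5 and 8.99 FPKM in skin and 15.2, 28.8 and 38.5 FPKM in small intestine. For these regulatory IRGs the lowest intestinal library lay above the highest skin library. Both were called whichever 1 of the 11 libraries was left out.

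Gbp3 was the third, with a log2 difference of 0.84 ± 0.27 (SE, adjusted p = 0.0227), but its FPKM overlapped, at 4.07, 7.66 and 3.95 in skin and 7.03, 6.05 and 7.61 in small intestine. It lost the call in 4 of the 11 fits that left out 1 library, namely without skin control 1 or 3 and without small intestine control 7 or 9. Without skin control 2, 7 members were called higher in small intestine, namely Igtp, Irgm1, Gbp3, Gbp4, Gbp5, Gbp6 and Gbp7, against 28.5% of all genes. Iigp1 (1.03, adjusted p = 0.0634), Gbp9 (0.60, adjusted p = 0.0507) and Gbp2 (0.63, adjusted p = 0.185) were not. The scale mattered for small differences between the tissues. On the log2(FPKM + 0.01) scale the median of all genes was -0.45, against -0.01 with normalized counts, and 2 members, Igtp and Irgm1, were called.

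The order of the levels within a group can be read from FPKM. In skin controls Gbp2 (13.1 ± 7.39 FPKM, SD, n = 3), Irgm1 (10.48 ± 3.53) and Igtp (9.86 ± 5.57) were the highest, and Gbp5 (2.43 ± 1.32) was the lowest. Every gene overlapped with the next in that order. In small intestine controls Igtp (59.9 ± 44.8) and Irgm1 (27.5 ± 11.7) led, and Irgm1 did not overlap with the next gene, Gbp4 (9.71 ± 3.62). Gbp5 was again the lowest at 2.54 ± 0.50 FPKM, without overlap with Gbp9 (3.95 ± 0.69). After IMQ the leading pair was the same in small intestine, with 32.9 FPKM for Igtp and 17.9 for Irgm1, but the lowest was Gbp6 at 3.41 FPKM, below Gbp5 at 3.95. In IMQ skin, Igtp (11.8 ± 1.42) and Irgm1 (10.6 ± 1.51) came first and Gbp5 (2.02 ± 0.47) last.

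**Figure D4:**
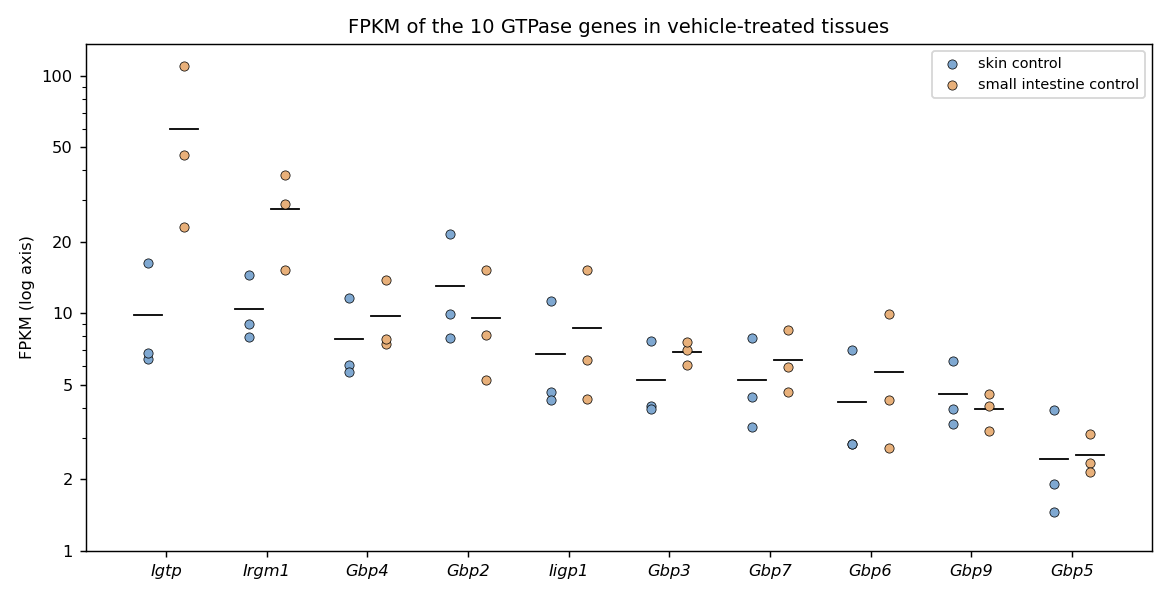
FPKM (log axis) of the 10 GTPase genes in the vehicle-treated libraries of skin (blue) and small intestine (orange), ordered by the mean in small intestine; points are libraries, 3 in each tissue, and horizontal bars are means. Only for Igtp and Irgm1 do all small intestine points lie above all skin points.

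The members moved together from library to library. Across the 11 libraries, each tissue centred on its own mean, Pearson's r of log2 normalized counts ran from 0.215 (Gbp3 with Irgm1) to 0.976 (Gbp2 with Gbp6) over the 45 pairs, with a median of 0.776. Gbp3 and Gbp5 were the least like the rest, with median r of 0.532 and 0.61 to the other members. The genes outside the set whose pattern was nearest to the members' mean, of 15031 compared, included Tgtp2 (r = 0.951), Irgm2 (0.947), Tgtp1 (0.942) and Gbp10 (0.94). Tgtp1, Tgtp2 and Irgm2 are IRG genes and Gbp10 is a GBP gene. These correlations share the same libraries, among them controls 2 and 9, and are a description.

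In all, 9 lists of related genes were read beside the members, and their counts are to be read against the shares of all genes. By edgeR, 4.05% of all genes were called higher and 2.69% lower in skin, and 2.77% and 0.17% in small intestine. DESeq2 called 14.8% in skin and 6.04% in small intestine. An unadjusted p under 0.05 by edgeR was seen for 4753 of 20512 genes in skin and 2452 of 19965 in small intestine. Without control 2 edgeR called 12.1% in skin, and without control 9 it called 1.87% in small intestine. The list of other GBP and IRG genes also held Gvin1 and Gm4070, which belong to neither family. Of the 17 genes of this list tested, 0 were called by edgeR in either tissue. Their median log2 fold change was 0.16 in skin, with 11 above 0, and -0.15 in small intestine, with 4 above 0. An unadjusted p under 0.05 was seen for 0 of them in skin and 3 in small intestine, and DESeq2 called 0 and 2, the latter 9930111J21Rik1 and 9930111J21Rik2. Without control 2, F830016B08Rik (1.52, adjusted p = 0.0380) and Gm4070 (0.63, adjusted p = 0.0495) were called higher in skin. No gene of the list was called in small intestine without control 9.

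Upstream of the GTPases, the gene for interferon-γ itself was close to the limit of detection. Ifng had 4, 15 and 17 counts in skin controls 1, 2 and 3 and 10, 0 and 10 in the IMQ libraries. In small intestine it had 0, 0 and 17 counts in controls 7, 8 and 9 and 2 and 0 after IMQ, so that its highest library was control 9, as for most members. With libraries at 0 it was not tested. Of the other genes of the list for interferon-γ signaling, 0 of 10 were called by edgeR in either tissue, with an unadjusted p under 0.05 for 3 in skin and 0 in small intestine, and DESeq2 called Ifngr1 in skin. Ifngr1, the ligand-binding receptor chain, was called higher in skin without control 2 (1.09, adjusted p = 0.0104) and not with it (0.78, adjusted p = 0.1001).

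Among inducers of interferon-γ in skin, 1 of 10 genes was called higher and 1 lower after IMQ, against 4.05% and 2.69% of all genes. The interleukin-12 receptor chains diverged, with Il12rb1 at 1.37 (adjusted p = 0.0447) and Il12rb2, the signaling chain, at -1.42 (adjusted p = 0.0258) on the log2 scale. In small intestine 0 of 9 were called by edgeR or DESeq2, and 1 had an unadjusted p under 0.05. DESeq2 called both in skin, and Il18rap. Without control 2, Il12rb1 kept its size (1.43) and was no longer called (adjusted p = 0.0550), Il12rb2 remained lower (-1.45, adjusted p = 0.0302), and Il12b (1.55, adjusted p = 0.0372) and Il18rap (1.49, adjusted p = 0.0369) were called higher.

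Interferon-γ target genes outside the GTPases had 0 of 12 called in skin and 0 of 13 in small intestine, with median log2 fold changes of -0.25 and -0.29. An unadjusted p under 0.05 was seen for 0 and 3, and DESeq2 called 0 and 2, the latter Ciita and Cd274. In control 9 all 13 of these genes were above the mean of controls 7 and 8, by a median of 1.52 times. Ido1, a tryptophan-degrading enzyme, had 788, 1011 and 4795 normalized counts in the controls and 915 and 661 after IMQ. Its pattern, with control 9 alone high, was that of Igtp. Cd274, which encodes PD-L1, followed Gbp3 and Gbp5 instead, with 623, 562 and 1266 in the controls and 1625 and 1874 after IMQ. It was called higher without control 9 (1.56, adjusted p = 0.0112) and not with it (1.10, adjusted p = 0.197).

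Type I interferon genes differed from the members in control 9. The type I target genes were at a median of 1.04 times the other intestinal controls in that library, against 1.92 for the members, while in skin control 2 they were at 2.15, against 2.35 for the members. In small intestine edgeR called 2 of 17 higher after IMQ, against 2.77% of all genes. They were Isg15 (1.08, adjusted p = 0.0295), a ubiquitin-like modifier, and Oas3 (0.79, adjusted p = 0.00968), a sensor of double-stranded RNA. DESeq2 called 7 of the 17, against 6.04% of all genes. The list's median log2 fold change was 0.57, with 16 of 17 above 0, against a median of -0.13 for the members. Without control 9 the medians were 0.56 for the list and 0.36 for the members, with 15 of 17 and 9 of 10 genes above 0. In that edgeR fit Isg15 remained called (1.25, adjusted p = 0.0266) and Oas3 did not (0.78, adjusted p = 0.0534). In skin 0 of 17 were called by edgeR, 3 had an unadjusted p under 0.05 and DESeq2 called 1, Oasl1. Without control 2 there were 4 by edgeR, against 12.1% of all genes, namely Ifi44, Rsad2, Oas1a and Oas2, with log2 fold changes of 1.03 to 1.59. Of the receptor and factor genes, Ifnar2 was called higher in skin (0.57, adjusted p = 0.0412), by edgeR and DESeq2, and in small intestine it was called by DESeq2 alone (0.82, edgeR adjusted p = 0.102). Ifnb1 was at 0 counts in every library.

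Genes that act with the GTPases split by step. Of the 13 genes for loading GTPases onto vacuoles, which include the autophagy conjugation genes, 0 were called in either tissue by edgeR or DESeq2, with median log2 fold changes of 0.02 and 0.07 and an unadjusted p under 0.05 for 2 in skin and 0 in small intestine. Of the 5 prenylation genes, 0 were called in either tissue by edgeR or DESeq2, and 0 had an unadjusted p under 0.05. Of the 7 inflammasome genes, edgeR called 5 higher in skin after IMQ, against 4.05% of all genes. Their log2 fold changes were 2.84 for Il1b (adjusted p = 0.00432), 1.36 for Nlrp3 (adjusted p = 0.0336), 1.10 for Aim2 (adjusted p = 0.0366), 0.86 for Casp1 (adjusted p = 0.0143) and 0.59 for Pycard (adjusted p = 0.0390). All 7 inflammasome genes were called without control 2, against 12.1% of all genes. In small intestine Il1b was higher (3.16, adjusted p = 0.00519) and Casp4 lower (-0.78, adjusted p = 0.0342), and DESeq2 called these and Casp1 (-0.54, edgeR adjusted p = 0.0849). Without control 9 only Il1b was called by edgeR, with Casp4 at -0.85 (adjusted p = 0.0660).

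Summed macrophage markers were higher after IMQ in both tissues, at 27700 to 41121 normalized counts in skin controls and 69442 to 88744 in skin IMQ, and at 15899 to 24250 and 49561 to 51053 in small intestine. Of the 7 markers, 5 were called higher in skin and 4 in small intestine. Summed neutrophil markers went from 764 to 1140 in skin controls to 179346 to 225762 after IMQ. In small intestine these markers went from 161 to 263 in controls to 1684 to 1690 after IMQ. Of the 5 neutrophil markers, 4 were called higher in skin and 1 in small intestine. In skin the called inflammasome genes moved with these sums, while in small intestine Il1b was higher and Casp4 lower where the macrophage and neutrophil sums were higher. The part of cell numbers in these values was not tested.

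**Figure D5:**
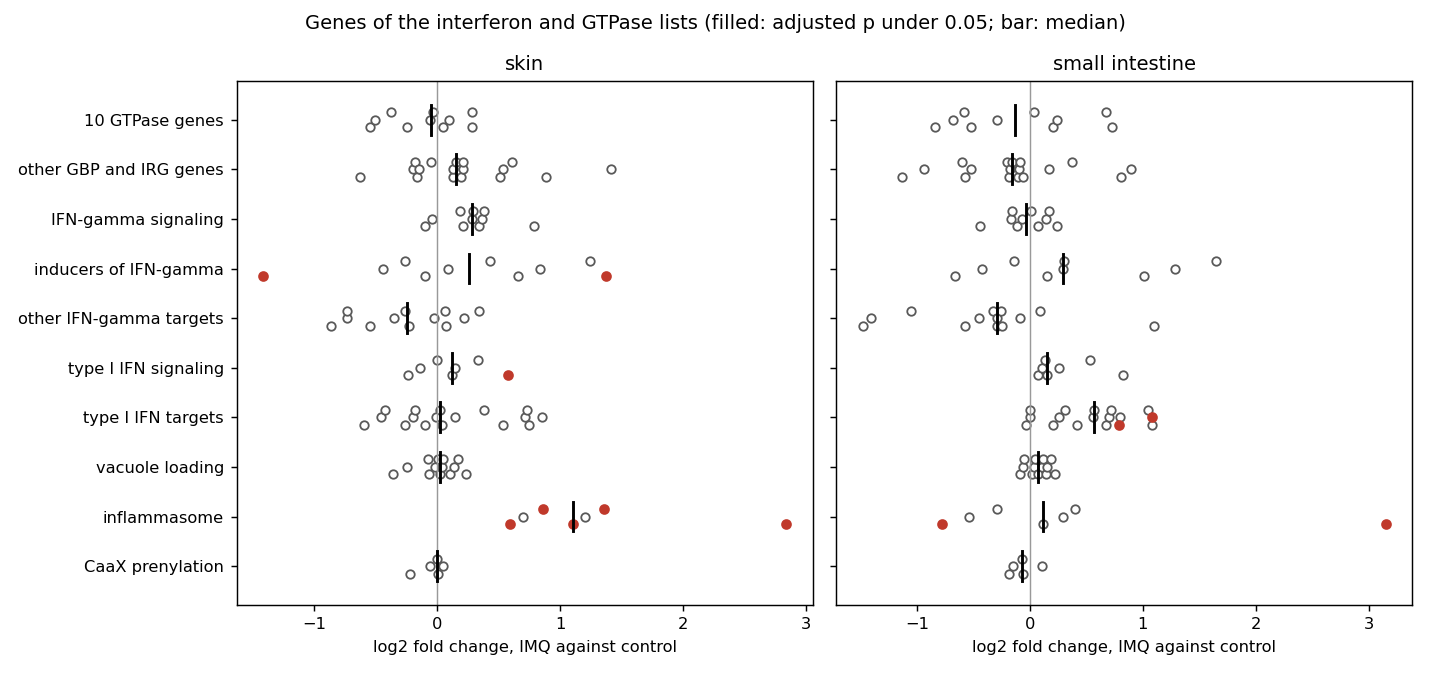
Log2 fold change of IMQ against control (x axis) for each gene of the 10 GTPase genes and 9 related lists in skin and small intestine, from fits with all libraries; filled red points have an adjusted p under 0.05 and vertical bars are list medians. The GTPase genes spread on both sides of 0 without a filled point, while 5 inflammasome genes in skin and 2 type I interferon targets in small intestine are filled. Also filled are Il12rb1 and Ifnar2 (higher) and Il12rb2 (lower) in skin, and Il1b (higher) and Casp4 (lower) in small intestine.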

How the data were processed

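RNA of skin and small intestine was sequenced as 100-base paired-end reads from TruSeq stranded mRNA libraries. The authors trimmed reads with Trimmomatic, aligned them to mm10 with HISAT2 2.1.0 and estimated abundance with StringTie 2.1.3b. Per the file headers, the deposited table holds a read count, an FPKM and a TPM per gene and library. The TPM values deposited by the authors were not tested. The counting of multi-mapped reads and the strand setting are not given in the sources used here, and the effect of aligning BALB/c reads to mm10 on these paralogs was not tested. No column outside the 11 libraries was used.

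The deposited counts were tested in R 4.3.3 with edgeR 4.0.16 (quasi-likelihood F test, RLE scaling), for genes counted at least once in each library that a fit used, within each tissue (20512 genes in skin, 19965 in small intestine) and over all 11 libraries (18108 genes) for the interaction and the vehicle tissues. P-values were adjusted by Benjamini-Hochberg over all genes of a fit, at a threshold of 0.05. The spread between libraries, as edgeR's biological coefficient of variation, came to 0.245 (skin) and 0.215 (small intestine). Normalized counts are scaled within a tissue. FPKM, as deposited, served for levels between genes. The fits were tested on simulated data. Alternatives used TMM, upper quartile scaling, other filters, DESeq2 1.42.0, limma 3.58.1 with voom or on log2(FPKM + 0.01) and log2(FPKM + 1), and leaving out each library. For each tissue, 1 fit of all 11 libraries and a minimum absolute log2 fold change of 1 were also tried. No 2 libraries of a group held counts that agree within sampling noise. Figures were drawn with matplotlib 3.10.9. All 10 members were named, with called genes of each list and the 5 genes nearest in pattern, of which 1 is not reported here. The members and lists were chosen with earlier results of these data known. GEO's labels and the study's methods differ on the treated site and the number of days.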

Additional observations from a re-analysis of the deposited data

How the results depend on the processing

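No paired analysis was possible because the labels do not say which skin and intestine came from the same mouse. The fits of all 11 libraries therefore treated each library as independent. No member was called in skin under the 10 other settings, for the interaction under any setting, or in small intestine under any but DESeq2, which called 1 (Gbp3). Leaving out 1 library gave 0 to 1 members called in skin, 0 in small intestine and 2 to 7 between the vehicle tissues, the last number without skin control 2. Leaving out controls 2 and 9 together, chosen after seeing the data, also gave 7. Between the vehicle tissues many genes were called in these fits, 9267 to 10421 with 1 library left out. It was 10421 of 18180 genes without skin control 2 and 9566 of 18286 without controls 2 and 9. Of 100 log2 fold changes under other settings, 96 in skin and 98 in small intestine kept their direction and side of the threshold, as did 57 of 60 for the interaction and 51 of 60 between the vehicle tissues. In each tissue, 1 of the 10 settings only added a minimum absolute log2 fold change of 1 to the main fit. Its values are those of the main fit and could not differ. The cause of the changes below was not tested.

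In skin, Gbp3 (0.0522) and Gbp4 (0.0690) turned positive with limma-voom, and Gbp4 with log2(FPKM + 0.01) (0.0201) and log2(FPKM + 1) (0.0118). In small intestine Gbp7 turned to -0.0201 with upper quartile scaling. For the interaction, Gbp2 was -0.0105 with limma-voom and -0.0388 without controls 2 and 9, and Iigp1 was -0.23 with log2(FPKM + 0.01). Between the vehicle tissues, Gbp2 was 0.0362 with limma-voom and 0.0531 without controls 2 and 9, and Gbp9 was -0.17 with log2(FPKM + 0.01).

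With 1 library left out, log2 fold changes in skin ran for Gbp2 from -0.84 to 0.0746, Gbp3 from -0.26 to 0.39, Gbp4 from -0.25 to 0.45, Gbp5 from -0.53 to 0.34, Gbp6 from -0.76 to 0.14, Gbp7 from -0.17 to 0.57, Irgm1 from -0.14 to 0.41, Iigp1 from -0.63 to 0.27 and Igtp from 0.0346 to 0.92. With 1 library left out, log2 fold changes in small intestine ran for Gbp2 from -0.81 to 0.0427, Gbp4 from -0.0934 to 0.60, Gbp6 from -1.0 to 0.049, Gbp7 from -0.14 to 0.34, Gbp9 from -0.14 to 0.54, Iigp1 from -0.71 to 0.39 and Igtp from -1.22 to 0.00467. With 1 library left out, log2 fold changes for the interaction ran for Gbp2 from -0.61 to 0.61, Gbp4 from -0.26 to 0.65, Gbp6 from -0.84 to 0.58, Gbp7 from -0.55 to 0.27, Gbp9 from -0.42 to 0.25 and Iigp1 from -0.58 to 0.78. With 1 library left out, log2 fold changes between the vehicle tissues ran for Gbp2 from -0.60 to 0.63, Gbp3 from 0.62 to 1.31, Gbp4 from 0.35 to 1.26, Gbp5 from 0.18 to 1.10, Gbp6 from 0.12 to 1.54, Gbp7 from 0.41 to 1.23, Gbp9 from -0.00437 to 0.60 and Iigp1 from -0.33 to 1.03.

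Over all genes, the number called was 1382 in skin, against 3030 with DESeq2, 894 on log2(FPKM + 1) and 258 to 2521 with 1 library left out. It was 588 in small intestine, against 1206 with DESeq2 and 294 to 801 with 1 library left out. For the interaction it was 462, against 1281 with DESeq2, 699 without controls 2 and 9 and 144 to 1072 with 1 library left out. The members had 240 to 14514 counts in a library, and a group had 2 or 3 libraries.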
